A study of Mus musculus with 12 samples.

Results

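Keratinocytes of HGF-transgenic mice that had been treated with an inhibitor of the epidermal growth factor receptor (EGFR) were set against keratinocytes carrying oncogenic RAS. The comparison rests on 6 of the 12 arrays of the series, selected by title alone: 3 arrays of AG1478-treated MT-HGF cells and 3 arrays of v-rasHa-transduced wild-type cells. It was made over 15868 genes with a single symbol on the array. All cells were primary cultures of FVB/N mouse keratinocytes, which make up most of the epidermis, and the RNA was read on the Affymetrix Mouse Gene 1.0 ST platform.

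The v-rasHa cells were wild type and had received v-rasHa, the retroviral oncogene version of Hras, a small GTPase, with a transduction note of 3 days and a growth note of regular medium without starvation. The AG1478-treated cells carried MT-HGF, a transgene that places hepatocyte growth factor (HGF) under a metallothionein promoter. They were mock transduced, kept in 8% serum and exposed for 24 h to AG1478, a small-molecule inhibitor of the EGFR tyrosine kinase. RNA of the v-rasHa cells was isolated with Trizol and a Qiagen column, RNA of the AG1478-treated cells with Trizol. Genotype, oncogene, inhibitor, medium note, RNA isolation and set of arrays therefore coincide with the groups and cannot be told apart. The titles call the v-rasHa arrays biological replicates and the AG1478-treated arrays only replicates (rep). Whether replicates derive from different animals or dishes is not in the labels, so all p-values reflect only array-to-array spread, part of which may be technical. As reference, 3 arrays of untreated MT-HGF cells and 3 of wild-type control cells carried the same medium, transduction and RNA isolation notes as the v-rasHa cells. The labels of the control cells name no mock transduction.

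HGF binds MET and EGFR ligands bind EGFR, and both receptors signal through RAS and the kinase cascade that ends in ERK. In the epidermis, ERK signalling keeps basal cells dividing. It also raises transcripts of EGFR ligands and of phosphatases and Sprouty proteins, which act as brakes on the pathway. Keratinocytes that leave the basal layer make the keratins Krt1 and Krt10 in the spinous layer, and later the proteins of the cornified envelope in the granular layer. Oncogenic RAS acts in this route below both receptors.

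The 12 arrays had medians of 6.77 to 6.84 log2 units and correlated with the others of their group at 0.993 to 0.997. The lowest of these values was that of AG1478-treated array 3, which also stood at 24.7 on the second principal component against 17.9 and 18.3 for the other treated arrays. A background was set for each array at the 95th percentile of chemosensory receptor genes, presumed mostly silent in skin. Of 1237 such genes on the array, only the 158 that passed the expression filter were used. This background ran from 6.80 to 7.13 log2 units. Over all chemosensory receptor genes the same percentile ran from 6.09 to 6.33. Which genes are above background, and the size of bounds, therefore depend on this choice. Of the keratinocyte identity list, 18 of 18 genes were above background on all 3 arrays of both groups, with Krt5 at means of 13.47 and 13.48 and Krt14 at 12.97 and 12.99 log2 units. Defining leukocyte genes such as Ptprc and Csf1r and endothelial genes such as Pecam1 and Cdh5 were not above background in either group. Of 11 measured members in each of these lists, 1 leukocyte and 2 endothelial genes were above background on all 3 arrays in each group. Melanocyte genes such as Dct (11.85 in v-rasHa and 11.51 in AG1478-treated cells) and fibroblast genes such as Col1a1 (9.50 and 10.34) were above it in both. Hras was not analysed here, so the v-rasHa label has no check of its own. Values are log2 expression, differences are AG1478-treated minus v-rasHa unless stated otherwise, errors after ± are standard errors of the limma fit with n = 3 arrays per group, and a gene was called at a limma p under 0.05 after Benjamini-Hochberg adjustment over all genes. By this rule 9 of the 18 keratinocyte identity genes were called higher and 3 lower, with a median of 0.129. Over all genes the shares were 16.3% and 20.4%. The higher count was 4 to 7 with the arrays scaled otherwise. Tfap2a (0.47) and Esrp1 (0.43) were among the higher genes, unlike Krt5 and Krt14.

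Of all genes tested, 2586 (16.3%) were called higher and 3241 (20.4%) lower in AG1478-treated MT-HGF cells than in v-rasHa cells. A difference of at least 2-fold was reached by 161 and 143 of them. The median difference over all genes was 0.0183 log2 units. Called genes mostly had separate arrays: for 5624 of 5827 the 3 values of one group did not overlap those of the other, against 45.8% of all genes. Untreated MT-HGF cells set against the same v-rasHa arrays gave 2129 genes (13.4%) higher and 2002 (12.6%) lower. With each array centred on reference genes these became 1806 and 1122. AG1478-treated against untreated MT-HGF cells, the test of whether treatment status goes with a difference, gave 1043 genes (6.57%) higher and 1572 (9.91%) lower. The first of these counts was 683 without untreated MT-HGF array 2, and centring on reference genes made the split 498 and 1663. These comparisons share arrays, so their values are given side by side and no agreement between them is counted. Counts within gene lists are to be read beside these shares over all genes in the same comparison. Counts near those shares are not results about the list.

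**Figure D1:**
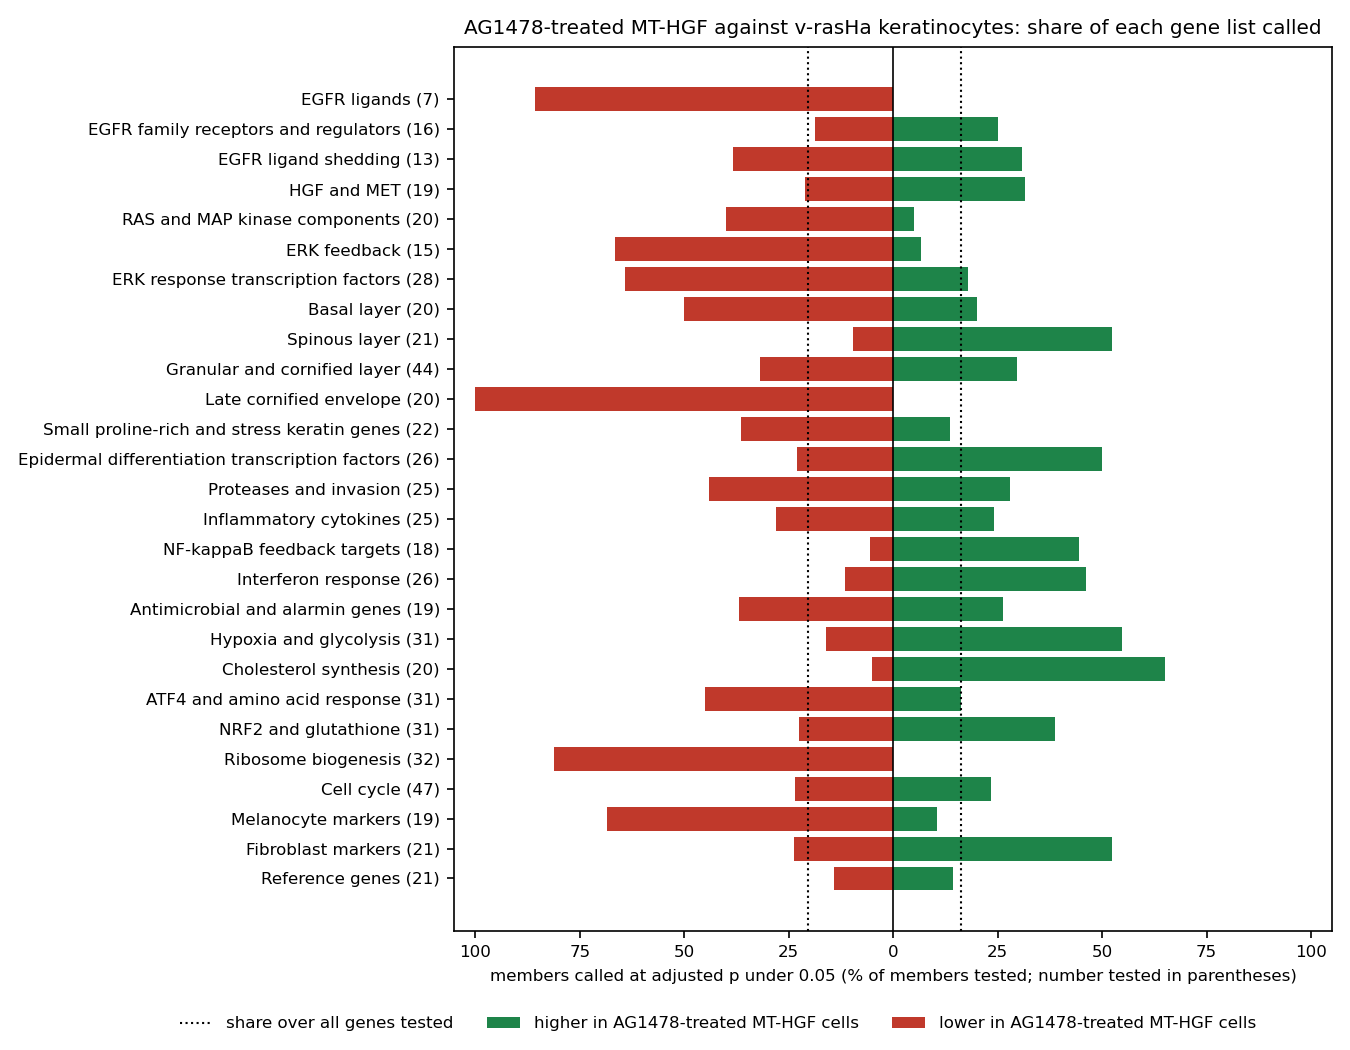
Share of the tested members of 27 gene lists called higher (bars to the right) or lower (bars to the left) in AG1478-treated MT-HGF than in v-rasHa keratinocytes, in percent, with the number of tested members in parentheses. Dotted lines mark the shares over all 15868 genes, 16.3% higher and 20.4% lower. EGFR ligands, late cornified envelope genes and ribosome biogenesis genes have bars on the lower side only.

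The EGFR ligand genes were lower in AG1478-treated cells. Of 7 measured, 6 were called lower and 0 higher, with a median difference of -0.566 log2 units, and 6 were called under each choice of omitted array. Hbegf, which encodes a membrane-anchored ligand released by proteases, was at 11.70, 11.47 and 11.81 log2 units on the v-rasHa arrays and at 9.96, 9.88 and 9.28 on the treated ones. All treated arrays lay below all v-rasHa arrays, and the level was 3.87-fold lower (-1.95 ± 0.13; limma adjusted p = 9.36e-09). Ereg (epiregulin) stood at 9.39, 9.44 and 9.56 in v-rasHa cells and at 8.55, 8.25 and 7.95 in treated cells, a 2.32-fold lower level (-1.21 ± 0.11; limma adjusted p = 3.60e-07). The treated arrays were again all below the v-rasHa arrays, with array 3 the lowest for both ligands. Btc (betacellulin) had values of 8.02, 8.04 and 8.14 against 6.92, 6.87 and 6.86, which are not above background, so its level was at least 2.01-fold lower. Smaller differences were those of Epgn (epigen, -0.57 ± 0.063) and Nrg1, a ligand of the related receptors ERBB3 and ERBB4 (-0.53 ± 0.063). Tgfa, an autocrine ligand of keratinocytes, was also lower (-0.46 ± 0.076). Areg (amphiregulin), a further ligand, was not among the 7 measured. Both groups had Egf at background.

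Untreated MT-HGF cells did not share the low ligand levels. Their mean for Hbegf was 11.27, for Ereg 9.90, for Btc 7.92 and for Tgfa 10.49 log2 units. AG1478-treated minus untreated MT-HGF was -1.57 for Hbegf, -1.66 for Ereg and -0.60 for Tgfa. In the comparison of treated with untreated MT-HGF cells 6 ligands were called lower and 0 higher, with a median of -0.708, whereas untreated MT-HGF against v-rasHa cells had 1 higher (Ereg, 0.44), 1 lower (Hbegf, -0.39) and a median of -0.0303. Wild-type control cells had means of 9.02 for Hbegf and 8.20 for Ereg.

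The receptors of these ligands went a different way. Egfr itself was at 10.15, 10.27 and 10.30 on the v-rasHa arrays and at 10.37, 10.36 and 10.13 on the treated arrays. The groups overlapped, and the difference of 0.05 ± 0.073 was not called (limma adjusted p = 0.640). Erbb2, the co-receptor without a ligand of its own, was at 9.46, 9.33 and 9.45 against 10.11, 10.25 and 10.12, a 1.67-fold higher level with no overlap (0.74 ± 0.064; limma adjusted p = 1.67e-07). Erbb3, its kinase-poor partner, was higher as well (0.56 ± 0.076), and Erbb4 was not above background. Both receptor genes were also higher than in untreated MT-HGF cells, Erbb2 by 0.48 and Erbb3 by 0.33.

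Of the 16 measured receptors and regulators, 4 were called higher and 3 lower, with a median of 0.0521. The other higher genes were Lrig3, a leucine-rich repeat protein of the Lrig family (0.39 ± 0.081), and Socs3, a feedback inhibitor of cytokine signalling (0.55 ± 0.067). On the lower side stood Cbl, a ubiquitin ligase that sends EGFR to degradation (-0.39 ± 0.059), Socs4 (-0.45 ± 0.11) and Errfi1, a feedback inhibitor that binds the EGFR kinase domain (-0.27 ± 0.081). The call of Errfi1 was lost without AG1478-treated array 1, at -0.25. Cblb (0.04), Lrig1 (0.07), Lrig2 (0.18), Ptpn1 (-0.07), Rnf41 (0.07) and Socs5 (-0.17) were not called, and Dok2 was not above background. Among 13 genes of ligand shedding, 4 were higher and 5 lower. The sheddases Adam10 (0.56 ± 0.067) and Adam17 (0.44 ± 0.082), which release EGFR ligands from the membrane, were higher, and the metalloprotease inhibitors Timp1 (-0.73 ± 0.11) and Timp2 (-0.54 ± 0.062) were lower. Adam19 reached at least 1.15-fold lower, because treated cells were not above background.

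The transgene label was borne out by Hgf. Its values were 4.90, 5.36 and 5.22 on the v-rasHa arrays, none above background, and 10.77, 10.80 and 10.66 on the AG1478-treated arrays. The level in treated cells was at least 13.6-fold higher against the array background (limma adjusted p = 5.77e-16). Untreated MT-HGF cells had a mean of 10.68, and treated and untreated cells differed by 0.06 log2 units, which was not called. Met, the HGF receptor, was at 9.99, 9.83 and 10.04 in v-rasHa cells and at 9.65, 9.68 and 9.38 in treated cells. The arrays did not overlap, and Met was 1.30-fold lower (-0.38 ± 0.082; limma adjusted p = 0.00159), by about as much as against untreated MT-HGF cells (-0.37).

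Of 19 genes of the HGF and MET list, 6 were higher and 4 lower, the latter count falling to 2 without v-rasHa array 3. Besides Hgf the higher genes were Plat, the tissue plasminogen activator (0.94 ± 0.072), Mst1, the ligand of the MET relative RON (0.46 ± 0.070), Spint2, an inhibitor of HGF-activating proteases (0.41 ± 0.099), the docking protein Gab1 (0.37 ± 0.072) and the semaphorin receptor Plxnb1 (0.37 ± 0.064). The adaptor Crk was lower (-0.41 ± 0.11). The adaptor Shc1 (-0.27) and the phosphatase Ptpn11 (-0.21) were called lower too. Without v-rasHa array 3 they stood at -0.21 and -0.20, and without AG1478-treated array 3 at -0.19 and -0.17, values that were not called, and Ptpn11 also lost its call without v-rasHa array 2 (-0.19) or AG1478-treated array 1 (-0.19). Crkl (-0.14), Grb2 (-0.15), Mst1r (0.08), Plau (0.06), Rnf43 (0.18), Spint1 (0.13) and St14 (-0.09) were not called, and Hgfac and Hpn were not above background.

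Transcripts that ERK signalling raises as its own brakes were lower in AG1478-treated MT-HGF cells. Of 15 feedback genes, 10 were called lower and 1 higher, with a median of -0.641. Between 8 and 11 were called lower when one array at a time was left out. Dusp4, a nuclear ERK phosphatase, was at 9.89, 9.71 and 9.82 on the v-rasHa arrays against 8.15, 7.98 and 7.89, or 3.48-fold lower (-1.80 ± 0.081; limma adjusted p = 8.49e-11). Dusp6, the cytoplasmic ERK phosphatase, was at 10.69, 10.96 and 10.82 against 9.55, 9.25 and 9.11, or 2.87-fold lower (-1.52 ± 0.096; limma adjusted p = 3.91e-09). For neither gene did any array of one group enter the range of the other. Mean levels in untreated MT-HGF cells lay between those of the other groups, at 9.15 for Dusp4 and 10.45 for Dusp6, and wild-type means were 7.98 and 9.59.

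The ERK phosphatase Dusp5 (-1.25 ± 0.077), the stress and ERK phosphatase Dusp1 (-1.11 ± 0.076) and the Sprouty genes Spry4 (-1.05 ± 0.064) and Spry2 (-1.04 ± 0.082) were each at least 2-fold lower. Spred1, which holds RAF in an inactive state (-0.71 ± 0.071), and the RAS GTPase-activating gene Rasa4 (-0.64 ± 0.074) followed. Spred3 was at -0.27 and lost its call without AG1478-treated array 2 (-0.21). Il17rd was counted among the lower genes but was close to the array background. It lost its call under 6 of the 16 alternatives run (other filters, scalings, fits or left-out arrays). Spry1 was the feedback gene called higher (0.28 ± 0.066). Dusp7 (-0.10) and Dusp8 (0.18) were not called, and Dusp2 was not above background. Spred2 was not called at -0.13, but its other cluster on the array stood at -0.71, so this gene has no settled value.

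Transcription factors of the ERK response pointed to the same side: of 28 measured, 18 were lower and 5 higher, with a median of -0.353. Fosl1, an AP-1 subunit that accumulates under sustained ERK activity, was at 10.23, 10.01 and 10.29 in v-rasHa cells and at 9.44, 9.32 and 9.68 in treated cells (-0.70 ± 0.094; limma adjusted p = 2.21e-05). The immediate early genes Ier5 (-0.82 ± 0.084) and Egr1 (-0.77 ± 0.083), the ETS factor Etv4 (-0.71 ± 0.077) and Klf6 (-0.72 ± 0.068) were lower as well. Not all of these separated treated from untreated MT-HGF cells: Fosl1 (-0.60) and Etv4 (-0.78) were called in that comparison, whereas Egr1 (-0.24), Ier5 (-0.22) and Klf6 (0.03) were not. Among 20 components of the RAS and MAP kinase machinery, 8 were lower and 1 was higher. The higher one was Rasgrp1, an exchange factor that loads RAS with GTP, at 7.85, 8.27 and 8.13 in v-rasHa cells and 9.89, 9.89 and 10.00 in treated cells (1.84 ± 0.096; limma adjusted p = 4.48e-10). Without v-rasHa array 1 a second member was called higher. The lower ones included Rras2 (-1.03 ± 0.071) and the genes of the RAS GTPase-activating proteins Rasa1 (-0.76 ± 0.084), Nf1 (-0.71 ± 0.065) and Rasa2 (-0.57 ± 0.081).

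**Figure D2:**
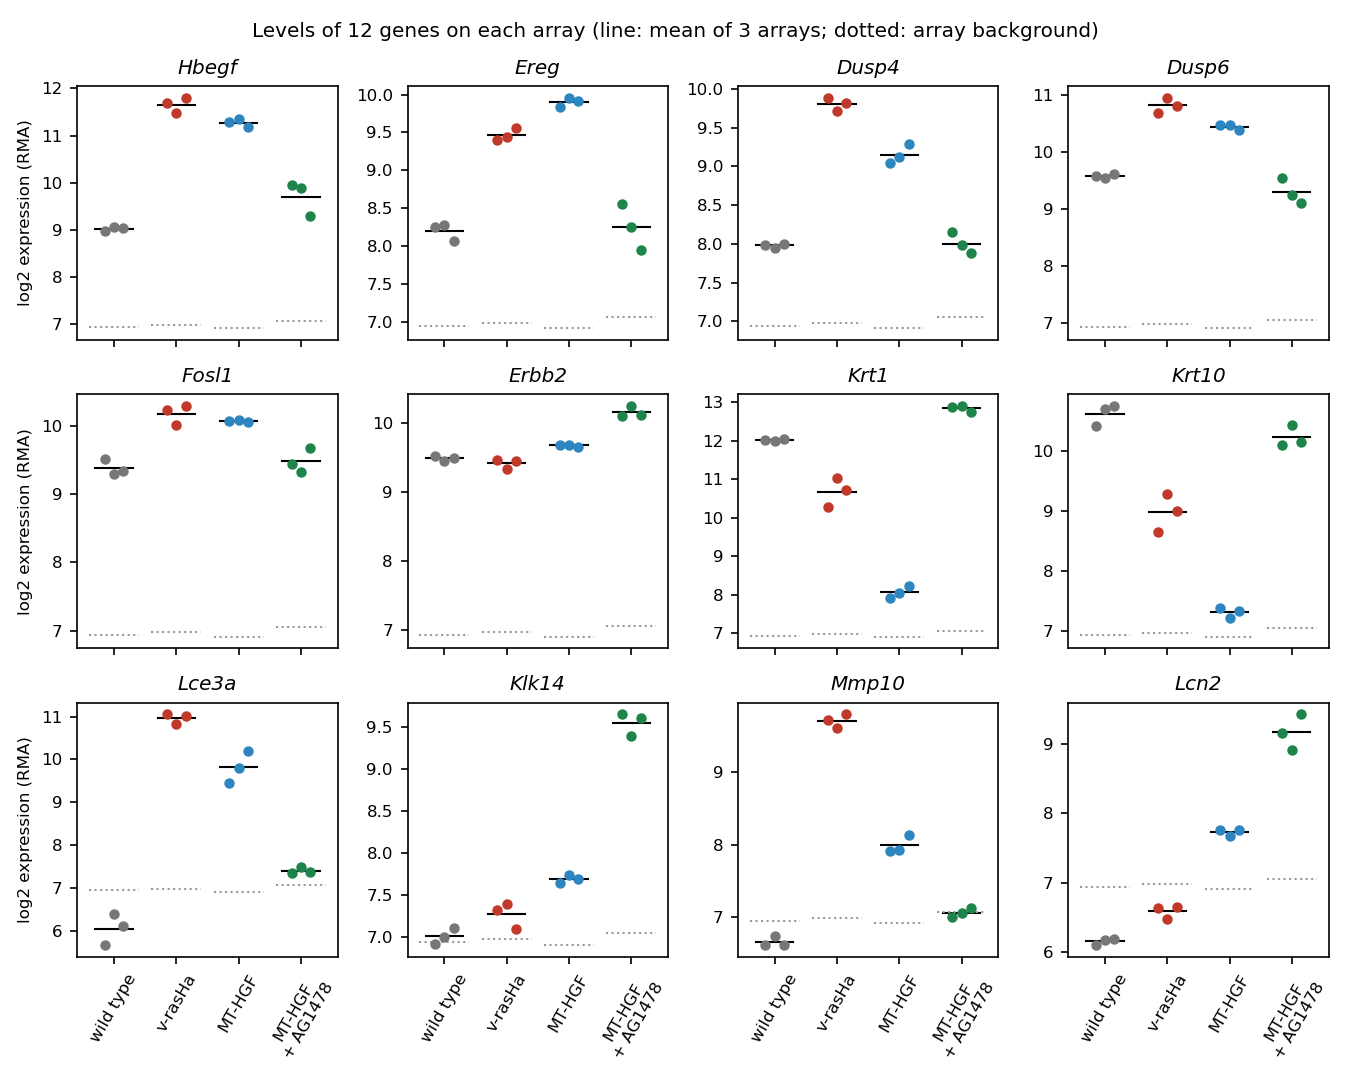
Log2 expression of 12 genes on every array of the 4 groups, with 1 point per array, a line at the mean of 3 arrays and a dotted line at the mean array background of the group. Hbegf, Ereg, Dusp4 and Dusp6 are lowest of the transgenic and RAS groups in AG1478-treated cells. Krt1 and Krt10 are highest of these 3 groups there, with means of 12.84 and 10.23 against 10.68 and 8.99 in v-rasHa cells.

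Spinous layer genes were higher in AG1478-treated cells, among them the keratin pair Krt1 and Krt10. Krt1 was at 10.29, 11.02 and 10.73 on the v-rasHa arrays and at 12.87, 12.91 and 12.75 on the treated arrays, a 4.48-fold higher level without overlap (2.16 ± 0.13; limma adjusted p = 2.42e-09). Its partner Krt10 was at 8.66, 9.29 and 9.01 against 10.11, 10.44 and 10.15, or 2.37-fold higher (1.25 ± 0.13; limma adjusted p = 1.69e-06). Untreated MT-HGF cells were on the other side of v-rasHa cells, with Krt1 at 8.07 (-2.61) and Krt10 at 7.32 (-1.67), so treated and untreated MT-HGF cells were 4.78 and 2.92 log2 units apart. Wild-type means were 12.02 and 10.63. In such bulk samples, more cells of a type and more RNA per cell cannot be told apart.

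In all, 11 of 21 spinous genes were higher and 2 lower, with a median of 0.179, and the lower count was 1 without v-rasHa array 2. Krt77, a further type II keratin of suprabasal cells, was at 7.28, 7.22 and 6.96 against 8.50, 8.50 and 8.40 (1.32 ± 0.098). Lgals7, which encodes galectin-7 of stratified epithelia, was higher by 0.93 ± 0.083, and the transglutaminase Tgm5 by 0.86 ± 0.091. Basal layer genes leaned the other way, with 10 of 20 lower and 4 higher and a median of -0.176. Among the lower ones were the integrins Itga6, of the hemidesmosome (-0.68 ± 0.087), Itga3, of a laminin receptor (-0.74 ± 0.065), and Itga2, of a collagen receptor (-0.98 ± 0.072), and the laminin-332 chain Lamb3 (-0.92 ± 0.086). Krt15, a keratin of resting basal and bulge cells, was higher (0.73 ± 0.078), at 7.18, 7.13 and 6.98 against 7.70, 7.97 and 7.80.

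The late cornified envelope genes, a tandem family whose products reinforce the outer cell shell, were lower without exception among those measured. Of 20 genes, 20 were called lower, with a median of -1.64, and 19 were still called without v-rasHa array 3. Lce3a was at 11.06, 10.82 and 11.01 on the v-rasHa arrays and at 7.35, 7.48 and 7.38 on the treated arrays, an 11.8-fold difference (-3.56 ± 0.17; limma adjusted p = 1.29e-10). Lce3f was at 10.38, 10.25 and 10.57 against 7.68, 7.70 and 7.16, or 7.40-fold lower (-2.89 ± 0.18; limma adjusted p = 2.75e-09). Every treated array lay more than 2 log2 units below every v-rasHa array for both genes. Lce1i was 6.20-fold, Lce3b 5.24-fold, Lce3e 4.39-fold and Lce1h 4.36-fold lower. The list holds Lce genes and Kprp, and because Lce genes resemble each other, a probe can pick up more than one of them, so values of single Lce genes are uncertain.

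For much of the family untreated MT-HGF cells were already below v-rasHa cells, with 19 of 20 genes called lower and a median of -1.16. The Lce3 genes lay lower still in treated cells: AG1478-treated minus untreated MT-HGF was -2.42 for Lce3a, -2.36 for Lce3f, -1.73 for Lce3e and -1.49 for Lce3b, all called. For Lce1h it was -0.25, not called. Over the family this comparison had 9 genes lower and 1 higher, with a median of -0.246. In wild-type cells Lce3a, Lce3b and Lce3f were not above background, with means of 6.05, 6.49 and 5.59.

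**Figure D3:**
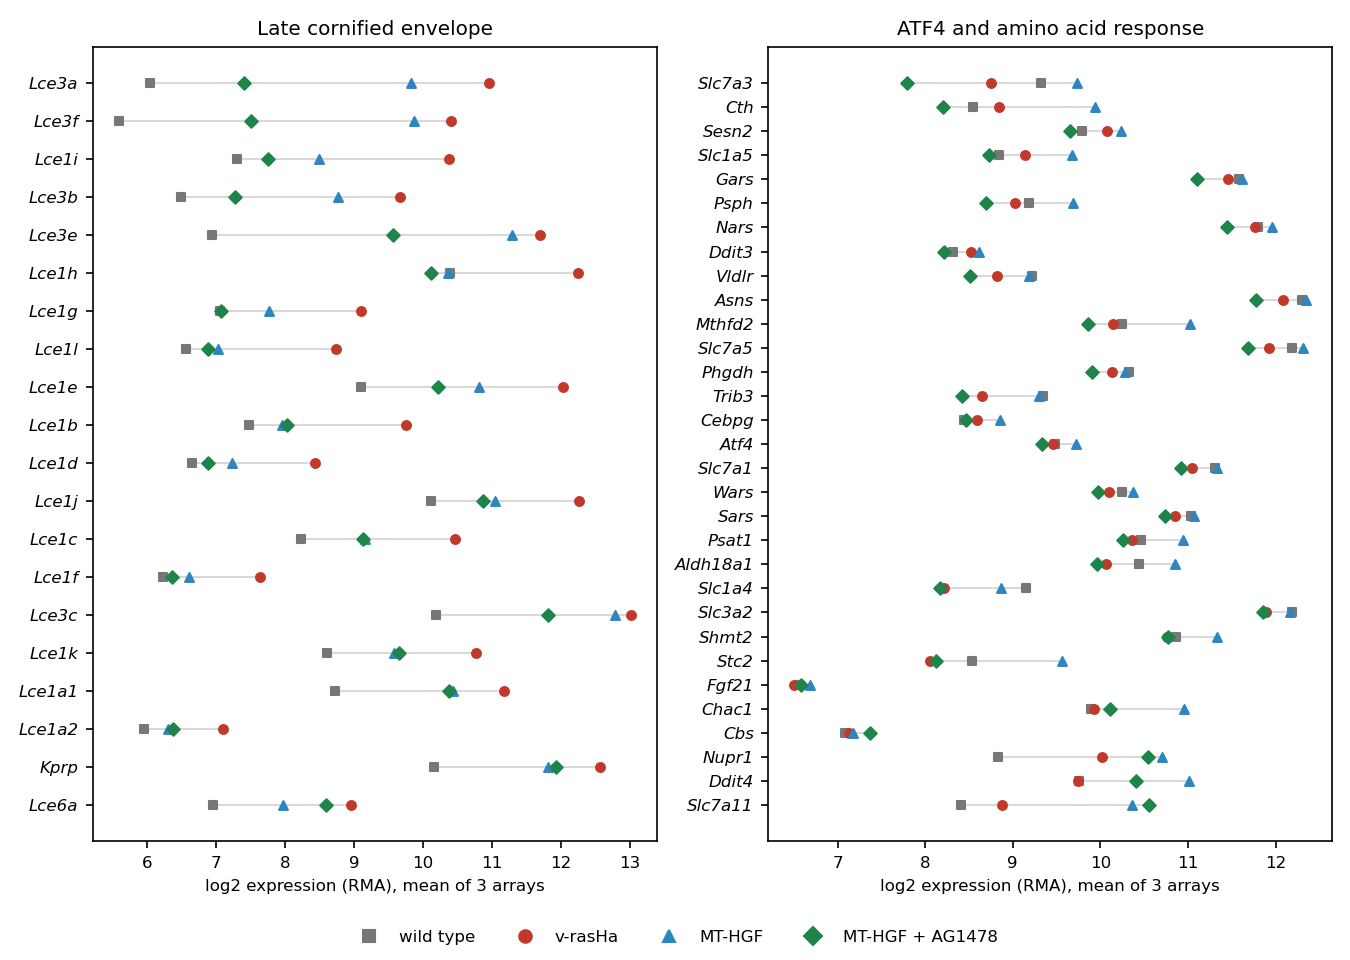
Mean log2 expression (3 arrays per group) of the 20 late cornified envelope genes and the 31 genes of the ATF4 and amino acid response, with members ordered by AG1478-treated minus v-rasHa. In the first list v-rasHa cells have the rightmost symbol for every gene. In the second, untreated MT-HGF cells are often rightmost, and AG1478-treated cells lie to their left for most genes, with Slc7a11 and Cbs on the right.

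The other granular and cornified genes divided evenly, with 13 of 44 higher and 14 lower and a median of 0.0153. The kallikreins Klk14, a protease of desquamation, and Klk13 were higher: Klk14 was at 7.33, 7.40 and 7.09 against 9.65, 9.39 and 9.61 (4.85-fold; 2.28 ± 0.089), and Klk13 was 3.55-fold higher (1.83 ± 0.10). The lipid barrier enzymes Alox12b (-1.27 ± 0.10), Aloxe3 (-1.21 ± 0.075), both lipoxygenases of the ceramide pathway, and the sphingomyelinase Smpd1 (-1.20 ± 0.091) were lower. Lor, which encodes the main cornified envelope protein loricrin, was at 10.38, 10.63 and 10.58 against 10.52, 10.90 and 10.33. Those arrays overlapped and the difference of 0.06 ± 0.15 was not called. Of 22 small proline-rich and stress keratin genes, 3 were higher and 8 lower, with Krt75 (-1.70 ± 0.10), the alarmin subunit S100a9 (-0.70 ± 0.081), Sprr2f (-0.65 ± 0.13) and Sprr2i (-0.64 ± 0.091) lower and Sprr2b higher (1.66 ± 0.089). The same uncertainty holds for Sprr2 genes.

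Among 26 transcription factors of epidermal differentiation, 13 were higher and 6 lower, with a median of 0.180. Pou2f3, a POU factor of the suprabasal epidermis, was among the genes with the largest differences over the whole array. It was at 6.75, 6.77 and 6.61 in v-rasHa cells, not above background, and at 8.93, 9.04 and 9.28 in treated cells, at least 4.30-fold higher (limma adjusted p = 4.44e-12), and untreated MT-HGF cells were at 6.50. Maf (0.97 ± 0.079) and Cebpa (0.63 ± 0.15) were higher, and Prdm1 (-0.85 ± 0.084) and Grhl3, which drives barrier formation (-0.64 ± 0.064), were lower. Arntl2 was at least 1.38-fold higher. Of 15 Notch genes, 4 were higher and 4 lower, with Notch3 at 0.73 ± 0.069, Maml2 at 0.41 ± 0.10, the DNA-binding mediator Rbpj at -0.47 ± 0.071, Nrarp at -0.42 ± 0.076 and the ligand Jag1 at -0.40 ± 0.084. Hair follicle and sebaceous genes had 9 of 27 higher and 4 lower (2 without v-rasHa array 2). Foxn1, the nude-locus factor of keratinocyte differentiation, was higher by 1.09 ± 0.087, the desaturases Scd3 (above background on 1 of 3 v-rasHa arrays) and Scd1 by 0.96 ± 0.068 and 0.80 ± 0.079 and the hedgehog receptor Ptch1 by 0.52 ± 0.078, and the activin antagonist Fst was lower (-0.56 ± 0.070).

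Of 6 measured simple epithelial keratins, 4 were called higher and 1 lower. Krt8 was at 9.39, 8.92 and 8.95 against 9.98, 9.91 and 10.15 (0.93 ± 0.12), and Krt19, above background on 2 of 3 v-rasHa arrays, was higher by 0.48 ± 0.077. Krt18, the partner of Krt8 (0.38 ± 0.11), and Krt7 (0.26 ± 0.081) lost their calls without v-rasHa array 2, at 0.25 and 0.20, which left 2 genes higher. Krt7 also lost it without v-rasHa array 3 (0.25) and without AG1478-treated arrays 1 (0.24) or 3 (0.22), and its arrays overlapped. Krt23 was at 10.16, 9.85 and 10.28 against 8.57, 8.70 and 8.82, or 2.63-fold lower (-1.40 ± 0.12), and Krt80 (-0.12) was not called. Untreated MT-HGF cells had means of 9.94 for Krt8 and 10.16 for Krt23. Treated cells differed from them by 0.07 for Krt8, not called, and by -1.46 for Krt23, called.

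**Figure D4:**
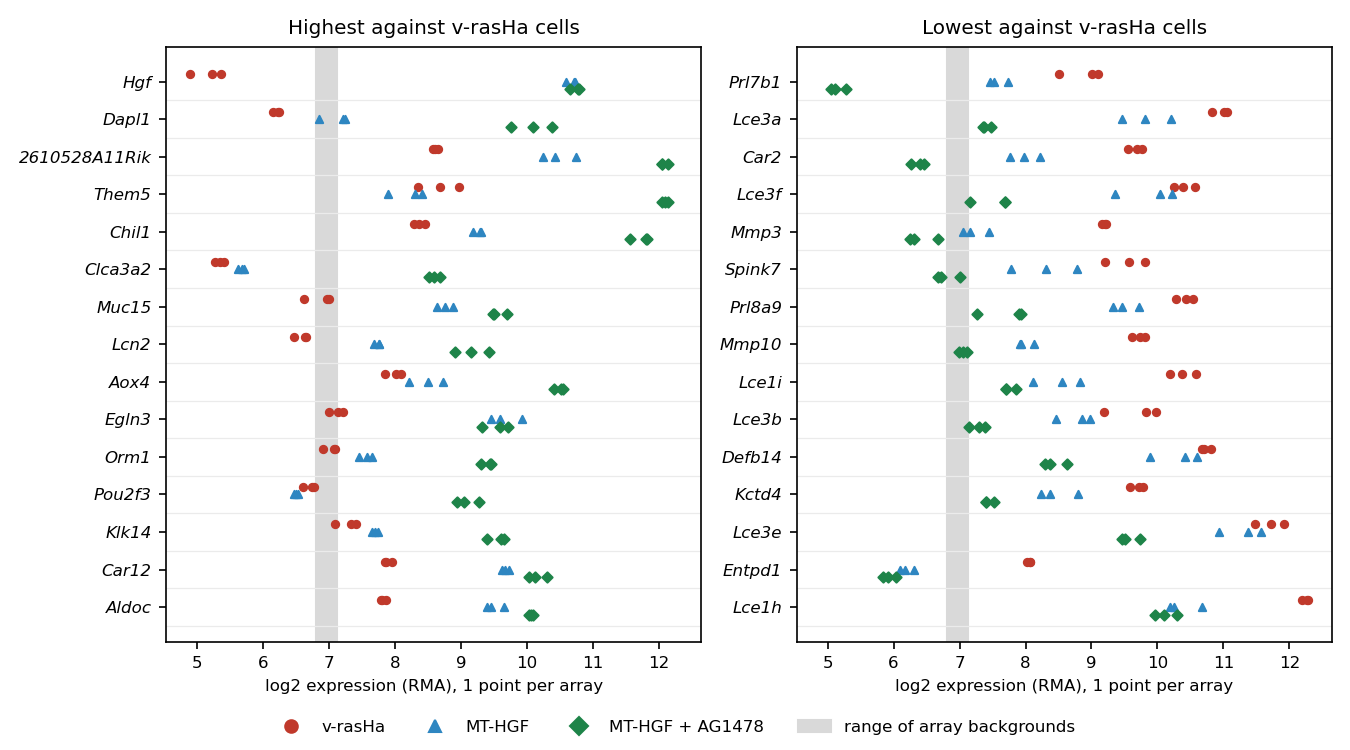
Log2 expression of the 15 genes most raised and the 15 most lowered in AG1478-treated MT-HGF against v-rasHa cells, with 1 point per array for these groups and for untreated MT-HGF cells. The grey band spans the array backgrounds of these groups, 6.80 to 7.13. For every gene shown the v-rasHa and AG1478-treated points do not overlap.

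The remaining genes among the 15 most raised had various functions. They were ranked by their difference, so the ranking itself is a description, and differences given as bounds have no settled order. Dapl1, expressed in differentiating epithelia, was at 6.25, 6.15 and 6.22 in v-rasHa cells and at 9.76, 10.10 and 10.38 in treated cells, at least 8.59-fold higher (limma adjusted p = 1.84e-11). Them5, a mitochondrial acyl-CoA thioesterase gene, was at 8.35, 8.97 and 8.68 against 12.09, 12.14 and 12.04, or 10.7-fold higher (3.43 ± 0.17; limma adjusted p = 3.08e-10), with untreated MT-HGF cells at 8.21. Both genes were also called higher in treated than in untreated MT-HGF cells, by 2.98 and 3.89. The gene 2610528A11Rik was 11.1-fold higher (3.47 ± 0.11) and Chil1, a secreted chitinase-like protein, 10.3-fold (3.37 ± 0.093).

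Secreted and acute-phase genes included Lcn2, the iron-siderophore binder lipocalin-2, at 6.64, 6.48 and 6.66 against 9.16, 8.91 and 9.42 (at least 4.55-fold higher), and Orm1, orosomucoid (5.19-fold; 2.38 ± 0.075). The membrane mucin gene Muc15 was 6.47-fold (2.69 ± 0.11), the aldehyde oxidase Aox4 5.65-fold (2.50 ± 0.10) and the carbonic anhydrase Car12 4.81-fold higher (2.26 ± 0.098). Clca3a2, of the calcium-activated chloride channel regulator family, was at 5.41, 5.34 and 5.27 against 8.52, 8.68 and 8.59, at least 3.07-fold above background. Egln3, an oxygen-sensing prolyl hydroxylase that is itself raised by hypoxia-inducible factors, was 5.37-fold higher (2.42 ± 0.12), and the glycolytic enzyme Aldoc 4.73-fold (2.24 ± 0.095). Muc15, Egln3, Car12 and Aldoc were already higher in untreated MT-HGF than in v-rasHa cells, by 1.90, 2.55, 1.79 and 1.68. Above background in v-rasHa cells were 1 of 3 arrays for Muc15 and 2 of 3 for Egln3 and Orm1, so their folds may be understated. For Orm1 and Aox4 those differences were 0.54 and 0.49, and the untreated mean of Lcn2 was 7.73.

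The genes most lowered beside the Lce genes are described next. Prl7b1, a prolactin-family gene of the placenta, was between 8.50 and 9.10 on the v-rasHa arrays and at 5.05, 5.11 and 5.29 on the treated ones, at least 3.51-fold lower (limma adjusted p = 3.16e-12). Prl8a9 was at 10.43, 10.28 and 10.53 against 7.94, 7.89 and 7.27 (6.56-fold; -2.71 ± 0.14), and Prl2c5 was 2.51-fold lower (-1.33 ± 0.11). Of 14 family members with a single symbol on the array, only 5 passed the expression filter, and these 5 were called lower. A gene can pass this filter through the v-rasHa arrays alone, so the count does not describe the whole family. Among the 5, Prl2c1 and Prl2a1 were near or under background and have no fold. Car2, a cytosolic carbonic anhydrase, was at 9.69, 9.56 and 9.76 against 6.47, 6.39 and 6.26 (at least 6.11-fold lower). Spink7 (at least 5.53-fold), a protease inhibitor of squamous epithelium, Kctd4 (4.77-fold; -2.25 ± 0.11) and the ectonucleotidase Entpd1 (at least 2.00-fold) were lower too. Untreated MT-HGF means for Prl7b1, Car2, Spink7 and Kctd4 were 7.57, 7.99, 8.29 and 8.47. Treated cells were called lower than untreated ones for all 4 genes. The difference was -1.03 for Kctd4, and for the others treated cells were not above background.

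The stromelysin genes Mmp3 and Mmp10 encode matrix metalloproteases. Mmp3 was at 9.20, 9.16 and 9.23 on the v-rasHa arrays and at 6.68, 6.25 and 6.31 on the treated arrays, at least 4.40-fold lower (limma adjusted p = 1.87e-11). Mmp10 was at 9.73, 9.62 and 9.81 against 6.99, 7.05 and 7.12, or 6.36-fold lower (-2.67 ± 0.076; limma adjusted p = 5.84e-13), with 1 of the 3 treated arrays above background, so that this fold may understate the difference. Untreated MT-HGF cells had means of 7.22 and 7.99 and lay between the other groups, closer to the treated cells. Mmp1b, of the same protease family, was called lower but was near background in v-rasHa cells, and Plaur, the urokinase receptor, was 2.05-fold lower (-1.04 ± 0.088). Mmp11 was higher, at 7.61, 7.54 and 7.67 against 8.87, 9.02 and 9.06 (1.38 ± 0.071). The list of proteases and invasion genes had 11 of 25 lower and 7 higher, with a median of -0.130. Of 11 clade B serpins, which inhibit proteases inside squamous cells, 6 were lower and 1 was higher, with Serpinb10 at -1.02 ± 0.11 and Serpinb6c at -0.83 ± 0.092.

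Promoters were searched for the letters of AP-1, ETS and SREBP type sites on both strands, as these bear on the Fos-family and sterol genes of this comparison. The AP-1 type letters TGANTCA, where N is any base, read the same on both strands. Among the 15 most raised genes 12 have a RefSeq promoter (250 bases before to 50 after the start) and 2 of those hold the AP-1 type letters. Among the 15 most lowered, 10 have one and 3 hold the letters, and of all 27025 genes with a promoter 8.97% do. Below are 120 bases before the start of 4 of these genes from GRCm38.p6, 5′ to 3′ along the gene's strand, with the AP-1 type letters in capitals. The first pair were lower and the second pair higher in AG1478-treated cells.
Mmp3, chr9:7445702-7445821, plus strand: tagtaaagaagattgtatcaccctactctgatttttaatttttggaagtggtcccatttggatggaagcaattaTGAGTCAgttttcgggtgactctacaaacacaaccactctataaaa
Mmp10, chr9:7502222-7502341, plus strand: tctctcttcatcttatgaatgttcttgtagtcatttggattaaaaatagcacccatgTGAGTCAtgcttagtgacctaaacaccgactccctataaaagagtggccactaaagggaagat
Clca3a2, chr3:144819495-144819614, minus strand: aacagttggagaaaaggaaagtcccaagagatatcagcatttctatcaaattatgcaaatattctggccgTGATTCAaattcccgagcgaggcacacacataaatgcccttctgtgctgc
Aox4, chr1:58210277-58210396, plus strand: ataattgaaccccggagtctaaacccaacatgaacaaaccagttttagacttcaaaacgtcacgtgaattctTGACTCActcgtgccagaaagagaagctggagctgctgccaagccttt

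The letters begin 46 bases before the start in Mmp3, 63 in Mmp10, 50 in Clca3a2 and 48 in Aox4. Their middle base differs: they read TGAGTCA in Mmp3 and Mmp10, TGACTCA in Aox4 and TGATTCA in Clca3a2. The third lowered gene is Prl8a9, with the letters, as TGACTCA, just after the start. The ETS type letters CCGGAA were in the promoter of 1 of the 12 raised genes (Aldoc) and 0 of the 10 lowered ones, beside 16.7% of all genes with a promoter. The SREBP type letters TCACNCCAC were in 1 of the 12 (Aldoc again) and 0 of the 10, beside 1.44%. These are matches of letters in a short window, described without a test.

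Genes of cholesterol synthesis were higher in AG1478-treated MT-HGF than in v-rasHa cells. Of 20 measured, 13 were called higher and 1 lower, with a median of 0.331. Ebp, the sterol isomerase, was at 8.49, 8.69 and 8.65 against 9.61, 9.58 and 9.30 (0.88 ± 0.098; limma adjusted p = 2.72e-06), and Mvk, mevalonate kinase, was at 9.25, 9.01 and 9.25 against 10.00, 10.01 and 10.11 (0.87 ± 0.083; limma adjusted p = 5.23e-07). No array of one group reached the range of the other for either enzyme. Tm7sf2 (0.54 ± 0.085) and Mvd (0.52 ± 0.069) were higher and Dhcr7, the enzyme of the last step (-0.48 ± 0.075), was lower. Untreated MT-HGF cells were higher still against v-rasHa cells, with 18 genes called higher and 0 lower and a median of 0.603, and treated against untreated cells had 10 lower and 1 higher with a median of -0.258. Of 16 genes of the list with a promoter, the SREBP type letters were found in 1, Hmgcs1, which was not called (0.04).

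In the list of fatty acid synthesis and handling, 12 of 32 genes were higher and 6 lower. Cpt1a, the gate of fatty acid entry into mitochondria, was at 9.22, 9.33 and 9.47 against 10.84, 10.95 and 11.02, or 3.03-fold higher (1.60 ± 0.077; limma adjusted p = 1.94e-10). The desaturases Fads2 (1.08 ± 0.11) and Scd2 (0.86 ± 0.10) were higher. Fabp4, a fatty acid carrier, was at least 2.51-fold lower, and Lpin2, a phosphatidate phosphatase, 2.81-fold lower (-1.49 ± 0.088). Retinoid genes had 8 of 20 higher and 5 lower: the retinol carrier Rbp2 was at 7.30, 7.48 and 7.30 against 9.38, 9.39 and 9.26 (1.98 ± 0.11), Rarres1 was higher by 1.74 ± 0.089, the receptors Rarg and Rxra by 0.75 ± 0.082 and 0.75 ± 0.067, and the retinol dehydrogenase Dhrs9 was lower (-1.27 ± 0.095).

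Hypoxia and glycolysis genes were mostly higher, with 17 of 31 called higher and 5 lower and a median of 0.315. The lactate exporter Slc16a3 was at 8.45, 8.10 and 8.41 against 10.20, 10.04 and 9.64 (1.64 ± 0.13; limma adjusted p = 4.50e-08), and Pdk1, a kinase that inhibits pyruvate dehydrogenase, was higher by 1.41 ± 0.093. Hk2, the hexokinase that commits glucose to glycolysis, went the opposite way, at 10.14, 10.08 and 10.26 against 8.58, 8.68 and 8.15 (3.23-fold lower; -1.69 ± 0.11). Untreated MT-HGF cells set against v-rasHa cells had 17 higher and 3 lower with a median of 0.326, and treated against untreated cells had 2 higher and 5 lower with a median of -0.0669. Slc16a3 and Pdk1 differed between treated and untreated cells by -0.21 and 0.12, neither called, and Hk2 by -0.68, called.

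Among 31 genes of the NRF2 and glutathione response, 12 were higher and 7 lower. Slc7a11, the cystine importer, was at 8.72, 8.94 and 8.99 against 10.54, 10.69 and 10.43 (3.19-fold higher; 1.67 ± 0.095; limma adjusted p = 1.29e-09), and Mgst1, a microsomal glutathione transferase, was at least 3.28-fold higher. Hmox1, heme oxygenase, was at 12.08, 11.90 and 12.11 against 10.84, 10.91 and 11.17 (-1.06 ± 0.091), and Srxn1, sulfiredoxin, was lower by 1.18 on the log2 scale. Within this list the named genes thus stood on both sides. Of 15 xenobiotic genes 4 were higher and 5 lower, the lower count falling to 2 without v-rasHa array 3, with Cyp2s1 at 1.06 ± 0.10 and Cyp2b19, a keratinocyte arachidonic acid epoxygenase, at 0.86 ± 0.12.

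The genes that ATF4 raises when amino acids or protein folding are short set the MT-HGF groups apart. AG1478-treated cells had 14 of 31 lower and 5 higher than v-rasHa cells (3 higher without v-rasHa array 2), with a median of -0.125. Untreated MT-HGF cells had 24 higher and 0 lower, with a median of 0.396, and treated against untreated cells had 27 lower and 0 higher, with a median of -0.572. The cationic amino acid carrier Slc7a3 was at 8.65, 8.68 and 8.94 in v-rasHa cells and at 7.89, 7.84 and 7.65 in treated cells (-0.96 ± 0.092), while untreated MT-HGF cells had a mean of 9.73. Cth, which makes cysteine from cystathionine, was at 8.86, 8.73 and 8.94 against 8.25, 8.28 and 8.09 (-0.64 ± 0.082), with 9.94 in untreated MT-HGF cells. Slc7a11, also a member of this list, was higher than in v-rasHa cells (1.67). So were Ddit4, an inhibitor of mTORC1 (0.66 ± 0.075), and Nupr1 (0.52 ± 0.068). The unfolded protein response had 10 of 23 higher and 2 lower (1 lower without v-rasHa array 3), with the degradation factor Derl3 at 1.28 ± 0.087, Creld2 at 0.55 ± 0.077 and the co-chaperone Dnajb9 at -0.49 ± 0.080. Heat shock genes had 9 of 18 lower and 2 higher: Hsph1 (-0.89 ± 0.096) and the mitochondrial chaperonin Hspd1 (-0.86 ± 0.10) were lower and Hspa1a was higher (0.74 ± 0.081).

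Ribosome biogenesis genes, which build ribosomes in the nucleolus, were lower: 26 of 32 were called lower and 0 higher, with a median of -0.402. Nop58, a core protein of box C/D small nucleolar particles, was at 10.21, 10.48 and 10.36 against 9.51, 9.65 and 9.08 (-0.93 ± 0.11; limma adjusted p = 5.67e-06), Nop14 was at -0.79 ± 0.10 and Utp4 at -0.79 ± 0.087. AG1478-treated array 3 was the lowest for each of these 3 genes. Untreated MT-HGF cells had 18 lower and 0 higher against v-rasHa cells, with a median of -0.307, and treated against untreated cells had 5 lower and 0 higher. The small nucleolar RNA gene Rnu3a was at 8.32, 9.09 and 8.64 against 7.69, 7.84 and 7.26 (-1.09 ± 0.18). Its mean in untreated MT-HGF cells was 7.69. RNA isolation notes differ between the v-rasHa and treated cells, and their part in the result was not tested. Of 41 cytoplasmic ribosomal protein genes 7 were higher and 1 lower, with a median of 0.0186, and without v-rasHa array 2 the counts were 4 and 0, and without AG1478-treated array 2 they were 5 and 5. Of 41 oxidative phosphorylation genes 10 were higher and 2 lower, and without v-rasHa array 2 they were 5 and 0. Lysosome and autophagy genes had 10 of 34 higher and 6 lower, the latter 3 without v-rasHa array 3.

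Among the 193 measured small non-coding RNAs, 14 were higher and 23 lower, smaller shares than the 16.3% and 20.4% over all genes. With one array left out in turn the counts ran from 7 higher (without v-rasHa array 3) to 18 and from 14 lower (without v-rasHa array 2) to 26. The host cluster of miR-205, the microRNA most typical of stratified epithelium, was higher: Mir205 was at 7.39, 7.34 and 7.89 against 8.38, 8.36 and 8.24 (0.78 ± 0.11; limma adjusted p = 4.46e-05). The array cluster does not tell the arms of the hairpin apart. Both mature arms from RefSeq are shown so that the seed, bases 2 to 8 in capitals, can be read.
miR-205-5p: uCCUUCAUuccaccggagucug
miR-205-3p: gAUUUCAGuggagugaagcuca

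Cell cycle genes showed no one-sided difference from v-rasHa cells, with 11 of 47 higher and 11 lower and a median of 0.0303. E2f8, a repressor of E2F targets, was lower (-0.95 ± 0.079), and E2f2 (0.82 ± 0.067), the cyclins Ccnd3 (0.60 ± 0.083) and Ccnb2 (0.42 ± 0.086) and the centromere histone Cenpa (0.48 ± 0.079) were higher. Untreated MT-HGF cells had 21 higher and 1 lower against v-rasHa cells (median 0.166), and treated against untreated cells had 1 higher and 15 lower (median -0.170). In the PI3K and FOXO list 5 of 23 genes were higher (3 without v-rasHa array 1) and 7 lower. Cdkn1b, the inhibitor p27, was at 8.83, 8.79 and 8.94 in v-rasHa cells and 9.50, 9.56 and 9.47 in treated cells (0.66 ± 0.078), and the FOXO-responsive gene Sesn1 was higher by 0.80 ± 0.069, while Ccng2 (-1.22 ± 0.11), Txnip (-0.87 ± 0.11) and Foxo1 (-0.46 ± 0.065) were lower. Of 24 p53 and senescence genes 6 were higher (3 with reference-gene centring) and 9 lower, including Mdm2, the p53 ubiquitin ligase (-0.74 ± 0.093), Plk2 (-0.87 ± 0.087) and Plk3 (-0.63 ± 0.068).

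Inflammatory genes were mixed. Of 25 cytokine genes 6 were higher and 7 lower. Il18, a cytokine stored by keratinocytes, was at 6.74, 7.10 and 6.94 against 8.67, 8.95 and 8.58, or 3.50-fold higher (1.81 ± 0.12; limma adjusted p = 5.37e-09), and untreated MT-HGF cells were at 6.80. Of the v-rasHa arrays 2 of 3 were above background, array 2 barely, so this fold may understate the difference. Il1f6, which encodes interleukin 36 alpha, was higher by 1.22 ± 0.11 and the alarmin Il33 by 0.91 ± 0.10. Untreated MT-HGF cells already had high levels of both, at 10.03 and 10.32. Il24 was at 10.88, 10.70 and 10.81 against 9.70, 9.64 and 9.46 (-1.20 ± 0.13), and Tnfrsf12a, the TWEAK receptor, was lower by 0.62 on the log2 scale. Among 16 chemokines 4 were higher and 2 lower, with the neutrophil attractants Cxcl5 (2 of 3 v-rasHa arrays above background) at 1.20 ± 0.13 and Ppbp at -1.21 ± 0.10 on opposite sides.

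NF-kappaB feedback targets had 8 of 18 higher and 1 lower, with a median of 0.152. The ribonuclease Zc3h12a, which degrades cytokine messages, was at 7.62, 7.57 and 7.78 against 8.72, 8.73 and 8.71 (1.07 ± 0.077; limma adjusted p = 2.12e-08), Bcl3 was higher by 1.00 ± 0.085, the adhesion receptor Icam1 by 0.81 ± 0.069, the subunit Rel by 0.80 ± 0.067 and Birc3 by 0.57 ± 0.070. Each of these 5 was also higher in treated than in untreated MT-HGF cells. Interferon response genes had 12 of 26 higher and 3 lower, with a median of 0.218, with Oasl2 at 0.64 ± 0.079, Stat2 at 0.58 ± 0.088 and Irf1 at 0.55 ± 0.078. Oasl2 and Irf1 were above background on 1 of 3 v-rasHa arrays. Rtp4 and Irf7 were at least 1.12-fold and 1.10-fold higher against background. Irf1 has a further cluster near background that stood at -0.01, and the mean of both clusters was at 0.27. Of 19 antimicrobial and alarmin genes 5 were higher and 7 lower. The beta-defensin Defb14 was at 10.70, 10.67 and 10.80 against 8.37, 8.29 and 8.63 (4.92-fold lower; -2.30 ± 0.14), the alarmin S100a7a was 4.02-fold lower (-2.01 ± 0.095) and the protease inhibitor Slpi 2.07-fold lower (-1.05 ± 0.085), whereas Defb6 was at least 2.03-fold higher. Prostaglandin genes had 3 of 15 higher and 4 lower, near the shares over all genes. Hpgd, which breaks prostaglandins down, was 3.28-fold higher (1.71 ± 0.074), the phospholipases Pla2g2f and Pla2g4e stood at 0.98 ± 0.10 and -1.12 ± 0.10, and Ptgs2, the inducible cyclooxygenase, was lower by 0.35 on the log2 scale.

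Junction and channel genes differed member by member. Of 26 tight junction and adhesion genes 10 were higher and 6 lower: the connexins Gjb6 (-1.22 ± 0.086) and Gjb2 (-1.19 ± 0.074) were lower, and the claudins Cldn3 (0.92 ± 0.10) and Cldn7 (0.77 ± 0.11) and the connexin Gja1 (0.62 ± 0.066) were higher. Gjb2 was at 11.24, 11.35 and 11.33 in v-rasHa cells, at a mean of 11.32 in untreated MT-HGF cells and at 10.11, 10.12 and 10.14 in treated cells. Of 28 channel, transporter and carbonic anhydrase genes 12 were higher and 8 lower. The alpha subunit of the epithelial sodium channel, Scnn1a, was higher (1.35 ± 0.081) and its gamma subunit, Scnn1g, lower (-1.34 ± 0.11), and the glucose carrier Slc5a1 was higher by 1.53 ± 0.079. The zinc importer Slc39a8 was higher by 1.30 ± 0.068, and Mt2 and Mt1, the metallothioneins, by 0.55 ± 0.063 and 0.48 ± 0.086. Their list had 3 of 13 higher and 2 lower, near the shares over all genes.

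Growth factor and matrix genes completed the comparison. In the TGF-beta and mesenchymal transition list 8 of 33 genes were higher (5 without AG1478-treated array 3) and 14 lower. Tgfbi was at 8.39, 8.34 and 8.23 against 10.01, 9.80 and 9.62 (1.49 ± 0.086), Id1, a BMP target, was higher by 0.92 ± 0.075, the inhibitory Smad gene Smad7 was lower by 1.03 on the log2 scale, the integrin Itga5 by 0.81, and the N-cadherin gene Cdh2 was at least 2.37-fold lower. Igfbp2 was at 10.05, 10.40 and 10.33 against 8.98, 9.12 and 8.97 (-1.24 ± 0.084), with 7.68 in untreated MT-HGF cells, and Igf1 (0.90 ± 0.10, with 1 of 3 v-rasHa arrays above background) and Igfbp7 (0.77 ± 0.073) were higher. The BMP antagonist Grem1 was lower (-1.05 ± 0.069) and Twsg1 higher (0.91 ± 0.075). Of 25 smooth muscle and contractile genes 8 were lower and 2 higher (1 without v-rasHa array 1), led by Actg2 (-1.13 ± 0.092), with Tagln at -0.68 ± 0.10 and Acta2 at -0.54 ± 0.076.

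Markers of other cell types moved along with the groups. Of 21 fibroblast genes 11 were higher and 5 lower, with the proteoglycan Dcn at 8.45, 8.68 and 8.76 against 10.01, 10.05 and 10.27 (1.48 ± 0.094), Col1a2 at 0.84 ± 0.074, Col1a1 at 0.84 ± 0.079 and Pdgfra lower at -0.88 ± 0.091. The mean of the list was 7.96 on all v-rasHa arrays and 8.15 to 8.21 on the treated arrays, and 3 members were not above background in either group. Of 19 melanocyte genes 13 were lower and 2 higher. Oca2 was at -0.87 ± 0.087 and Mlana at -0.66 ± 0.092, while Rab38 (0.57 ± 0.077) and Erbb3 (0.56 ± 0.076), which keratinocytes also express, were higher. The melanocyte list mean ran from 9.24 to 9.37 in v-rasHa and from 8.95 to 9.07 in treated cells. Untreated MT-HGF cells stood near the treated ones, at 8.94 to 9.10 for the melanocyte list and 8.14 to 8.23 for the fibroblast list. The part of such cells in the matrix, IGF and ligand results was not tested. Leukocyte and endothelial lists had 9 of 11 and 8 of 11 members not above background in v-rasHa cells. The leukocyte gene Lyz2 was called lower (-0.52), but lost its call under 7 of the 16 alternatives run, among them without v-rasHa array 1. Flt1, of the endothelial list, was called higher (0.27), but lost its call under 5 of them, among them without v-rasHa array 2.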

How the data were processed

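Total RNA of 12 keratinocyte cultures was measured on 12 arrays in 4 groups of 3. The authors deposited log2 expression values made with RMA, per the submitters' processing notes, and no source used here says whether RMA was run once over all arrays. Arrays have no read depth, and 3 per group limit the precision. The platform annotation gave 21789 of 35511 clusters a single symbol. Clusters above the 30th percentile of their array on at least 3 arrays were kept, and the cluster with the highest mean stood for a gene. A group-means model of all 12 arrays was fitted with limma 3.58.1 in R 4.3.3 (default eBayes, two-sided). The script was tested on simulated data. Where the lower group was not above the array background on any of its 3 arrays, a fold is "at least" that of the higher group's mean over the mean of these backgrounds, and no fold is given where this is not above 1 or neither group is above background. Named genes were the 15 with the largest called differences in each direction with separate arrays, every measured member of 5 short lists, up to 5 called members with the largest difference of each other list, and Krt1, Krt10, Lor, Hgf, Met and Egfr. A few further genes (Krt5, Krt14, Dct, Cbs, Kprp, Hmgcs1 and the markers not above background) were named after their values were seen. The comparison and the 59 lists, 58 of them with measured members, were chosen with earlier results of these data known. Alternatives were other filters, scalings, fits and left-out arrays. Promoter and microRNA sequences are RefSeq's, GRCm38.p6.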

Additional observations from a re-analysis of the deposited data

Results flagged for a closer look

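For 7 named genes, AG1478-treated and untreated MT-HGF cells were called on opposite sides of v-rasHa cells, and the difference between the MT-HGF groups was itself called by limma (Benjamini-Hochberg adjusted). AG1478-treated minus untreated MT-HGF was 4.78 for the spinous keratin Krt1, 2.92 for its partner Krt10 and 1.34 for the epoxygenase Cyp2b19, all of which lay above v-rasHa cells in the treated and below them in the untreated cells. It was -1.93 for the amino acid carrier Slc7a3, -1.73 for the cystathionine lyase Cth, -1.66 for the EGFR ligand Ereg and -1.22 for the cornified envelope gene Sprr2f, which lay below v-rasHa cells in the treated and above them in the untreated cells. Treated and untreated cells also differ in set of arrays and in medium, RNA isolation and mock transduction notes, which cannot be told apart from the treatment.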

How the results depend on the processing

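The counts of AG1478-treated MT-HGF against v-rasHa cells stayed within 1.5 times the reported values under all alternatives run, at 1729 to 3636 higher and 2555 to 3867 lower, the lowest of each with reference-gene centring and without v-rasHa array 3. In the supporting comparisons, centring on reference genes gave 1122 genes lower for untreated MT-HGF against v-rasHa cells and 498 higher for treated against untreated MT-HGF cells. Array weights gave 1795 for the latter, and leaving out one array at a time 683 to 912. The cause was not tested. Of 321 named genes, no called gene changed direction under the alternatives run for it, and 282 genes kept their side of the threshold. Of these 321 genes, 306 were run under all 16 alternatives, and the other 15 did not pass the 50th percentile filter. The uncalled genes Ptpn1, Lor, Dok2, Egf, Erbb4 and Hgfac had differences near 0 of either sign. Counts within lists that moved by over 1.5 times are given with the reported count first, except those of the keratinocyte identity, leukocyte and endothelial lists. Counts of the antigen presentation, sex-linked and chemosensory receptor lists also moved by over 1.5 times and are not given. The lower count of the reference genes went from 3 to 0 without v-rasHa array 3. Reference-gene centring changed the higher counts from 5 to 2 (PI3K and FOXO), 6 to 3 (p53), 8 to 4 (TGF-beta), 2 to 1 (smooth muscle), 5 to 3 (ATF4), 2 to 1 (heat shock), 10 to 5 (oxidative phosphorylation), 7 to 2 (ribosomal proteins) and 14 to 7 (small RNAs), and the lower counts from 7 to 4 (NRF2), 5 to 3 (xenobiotic) and 1 to 0 (ribosomal proteins). Median centring changed smooth muscle higher from 2 to 1. Repeated quantile normalization changed ERK feedback higher from 1 to 2, xenobiotic lower from 5 to 3 and ribosomal proteins lower from 1 to 3. A fit of both groups alone changed xenobiotic lower from 5 to 3, ribosomal proteins lower from 1 to 0 and small RNAs higher from 14 to 9. The 50th percentile filter changed ERK feedback higher from 1 to 2, serpins higher from 1 to 0 and interferon lower from 3 to 1, and no filter changed serpins higher from 1 to 2. Array weights changed the higher counts from 1 to 3 (RAS and MAP kinase), 1 to 2 (ERK feedback), 10 to 16 (unfolded protein response), 10 to 18 (lysosome), 10 to 18 (oxidative phosphorylation), 7 to 11 (ribosomal proteins) and 14 to 25 (small RNAs), and the lower counts from 2 to 4 (oxidative phosphorylation), 1 to 2 (ribosomal proteins) and 23 to 41 (small RNAs). The replicate numbers of v-rasHa and AG1478-treated arrays did not pair: same-numbered arrays had correlations of deviations of -0.353, 0.00783 and -0.44. With the replicate block, 2671 genes were higher and 3260 lower. Across numbers, v-rasHa array 1 and AG1478-treated array 3 stood at 0.492. Same-numbered v-rasHa and untreated MT-HGF arrays had 0.473, 0.0868 and 0.495, and the main fit did not pair them. With the block, untreated MT-HGF against v-rasHa cells had 2204 genes higher and 2050 lower. Signal near the array background limits genes given as bounds.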
